A study of Mus musculus with 9 samples.

Results

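A set of 10 gene names were chosen for this account: Eln, Lox, Fbn1, Fbn2, Mfap2, Mfap4, Mfap5, Fbln1, Fbln2 and Fbln5, which encode elastin, a crosslinking enzyme, and proteins of microfibrils and elastic fibres. Of the 10, 9 had a probe set with a gene name of its own among the 19937 genes named on the array, and Fbn1 was not analysed here. Each of the 9 had 1 such probe set, so brightness, by which the probe set of a gene was chosen, decided nothing for them. The names were picked with earlier results of these data known, so the number of members that moved is a description of these genes and not independent evidence of a direction.

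Mouse embryonic fibroblasts (MEFs), the connective tissue cells that grow out when embryos are put in culture, were profiled on 9 Affymetrix arrays, 3 for each of 3 genotypes: p27CK (CK), p27KO (KO) and wild type (WT). p27, the product of Cdkn1b, inhibits the kinases that drive the cell cycle. In published work p27CK names a p27 that can no longer bind cyclins and their kinases, whereas the labels give the name alone, and the extraction notes of all 9 samples speak of wild-type or delta51 mice without tying delta51 to a group. Cells of every genotype were grown in 10% serum and then starved of serum for 72 h, which puts fibroblasts into quiescence. The question put by the design is how quiescent cells of each mutant differ from WT and from each other. Strain, embryo age and the number of embryos or cultures behind a genotype are not given in the sources used here, so p-values cover no more than array-to-array spread, perhaps technical, and genotype and culture cannot be told apart.

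Array medians lay between 7.29 and 7.40 on the log2 scale, and all values below are log2 values made by RMA (robust multi-array average) unless a fold is named. Probe sets differ in their affinity, so a value is compared only with the same gene on other arrays. Cdkn1b averaged 11.10 ± 0.09 in CK, 7.38 ± 0.11 in KO and 11.46 ± 0.04 in WT (SD, n = 3 each), so its own signal was low in the cells titled KO. Of 11 fibroblast markers 10 were bright enough to be tested, and the mean over the list was 11.77 to 11.88 on CK arrays, 11.05 to 11.09 on KO arrays and 11.93 to 12.05 on WT arrays. Of the 10, 9 were called lower in KO than in WT by limma (adjusted p under 0.05), where 24.6% of all genes tested were. Thy1, a surface marker of fibroblasts, averaged 11.69 in CK, 7.14 in KO and 11.73 in WT, while Col1a1, a chain of the main fibroblast collagen, averaged 13.08, 12.66 and 12.91 in CK, KO and WT. All 7 cartilage markers tested were called higher in KO than in WT, where 26.6% of all genes tested were. Of these, Matn1 (6.38 in CK and 6.42 in WT), Acan (6.64 and 6.42) and Comp (7.11 and 7.16) averaged under 7.24, the limit for testing. They were tested through KO alone, so they had to be higher there. Hapln1, too dim to be tested, went the other way (6.21 in KO and 7.77 in WT). The mean over the 8 measured was 7.44 to 7.50 on CK arrays, 10.33 to 10.71 on KO arrays and 8.51 to 8.74 on WT arrays. Means over the neural and glial list were 7.80 to 8.13 in CK, 6.66 to 6.78 in KO and 7.34 to 7.45 in WT. Of its genes, Nes averaged 9.50, 6.003 and 6.04 and Map2 averaged 9.35, 7.63 and 10.57 in CK, KO and WT. The endothelial list lay at 6.32 to 6.41 in CK, 6.35 to 6.41 in KO and 6.89 to 6.98 in WT, and the macrophage list at 6.57 to 6.60 in CK, 6.39 to 6.52 in KO and 6.96 to 7.004 in WT. The adipocyte list lay at 7.67 to 7.74 in CK, 7.73 to 7.79 in KO and 8.004 to 8.11 in WT, and the epithelial list at 6.80 to 6.89, 6.98 to 7.05 and 6.84 to 6.95.

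Of 7 smooth muscle markers, Myh11, Des and Myocd were under 7.24, the limit for testing, in CK, KO and WT. Cnn1, a contractile protein of smooth muscle, averaged 9.79 in CK, 7.98 in KO and 8.65 in WT, a difference called in all 3 comparisons. Acta2 averaged 12.85, 13.30 and 12.98 and Tagln 11.05, 10.58 and 10.46 in CK, KO and WT, and the list mean was 9.07 to 9.26 in CK, 8.79 to 9.00 in KO and 8.91 to 8.97 in WT. By mean over the list, the fibroblast list and the neural and glial list were lowest in KO, and the cartilage list was highest in KO. The endothelial, macrophage and adipocyte means were lower in both mutants than in WT. Only 1 gene was tested in each of the neural and glial, endothelial and macrophage lists. Genes within a list differed: Fabp4 averaged 8.96 in CK, 7.45 in KO and 7.93 in WT, and Pparg 8.45, 10.22 and 10.91. In the neural and glial list, Sox10 (6.87, 7.06 and 6.95) and Tubb3 (6.21, 6.22 and 5.99) were highest in KO. The part of these markers in the results below was not tested. In bulk RNA, fewer cells of a type and less RNA per cell cannot be told apart.

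Elastic fibres give skin, arteries and lung their recoil. Their core is elastin, secreted as soluble tropoelastin and made insoluble when lysyl oxidases crosslink it. Around and before the core lies a scaffold of microfibrils built from fibrillins, to which small microfibril-associated proteins attach, and fibulins help to bring tropoelastin, crosslinking enzyme and microfibrils together. Embryonic fibroblasts make many of these proteins and also assemble microfibrils without elastin.

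The members had their lowest level in KO cells in most cases, and in CK cells they split. In KO against WT 7 of the 9 fell and 1 rose by limma, where 24.6% and 26.6% of the 11962 genes tested did. In CK against WT 4 fell and 3 rose, where 32.1% and 30.7% of genes did, so by count the CK members are close to all genes. Every KO array lay below every CK and WT array for 7 of the 9 members, an order found in 15.0% of the genes tested. No member had its highest mean in KO, while CK was highest for 4 and WT for 5. The share of all genes with each genotype highest was not worked out, so these counts only describe the members.

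**Figure D1:**
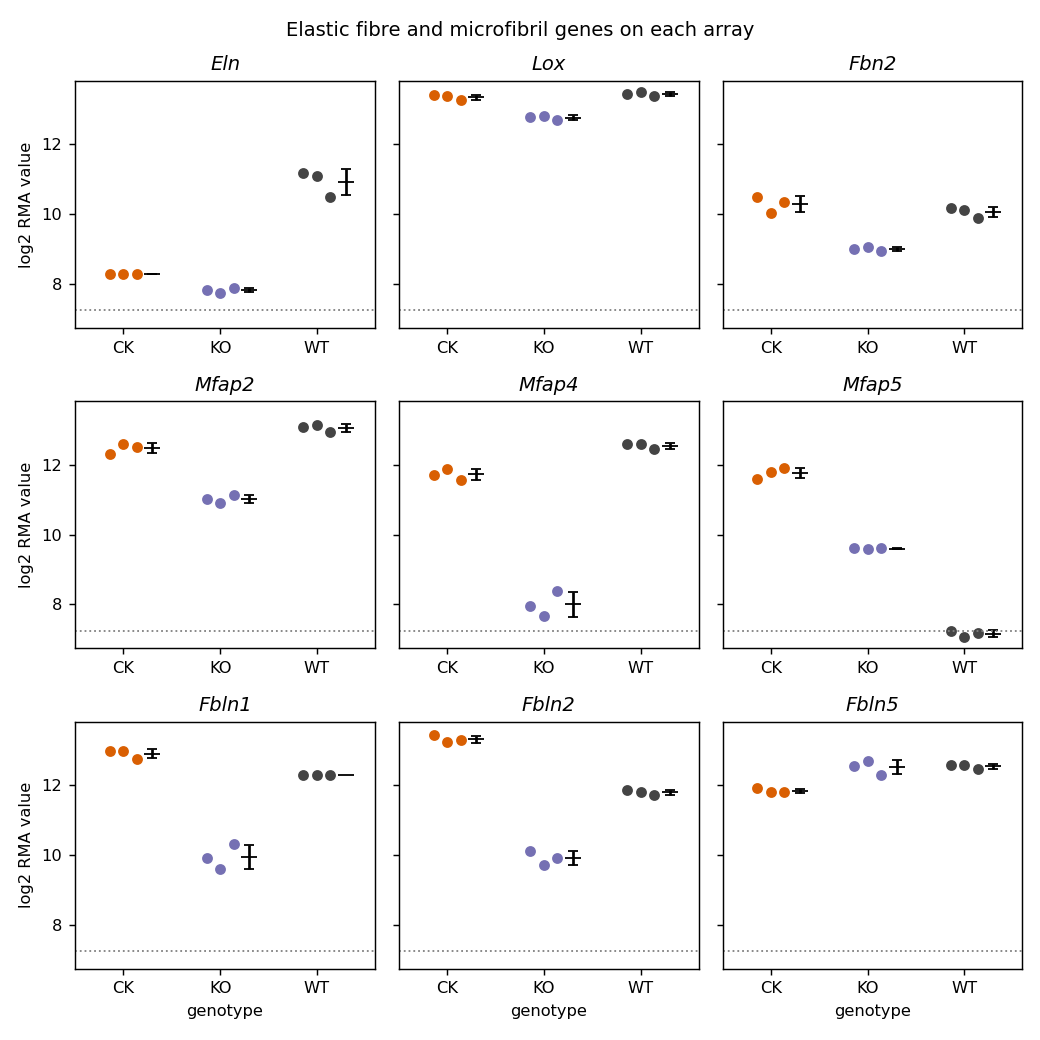
Log2 RMA values (vertical axis) of the 9 members on each array, with CK, KO and WT along the horizontal axis; points are arrays, black marks are the mean and SD of 3 arrays (no SD where all 3 are equal), and the dotted line is 7.24, the lowest mean of a tested gene. KO points lie lowest for Eln, Lox, Fbn2, Mfap2, Mfap4, Fbln1 and Fbln2, WT points lie lowest for Mfap5, and CK points lie lowest for Fbln5.

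Elastin RNA was far lower in both mutants than in WT. Eln, on chromosome 5, read 8.28, 8.28 and 8.27 on the CK arrays, 7.83, 7.75 and 7.88 on the KO arrays, and 11.19, 11.09 and 10.51 on the WT arrays. Mutant arrays did not overlap WT arrays, and the spread was widest in WT, through replicate 3. Eln fell by 2.65 in CK relative to WT (6.28-fold, SE 0.14, limma adjusted p = 8.52e-08) and fell by 3.11 in KO relative to WT (8.64-fold, SE 0.14, limma adjusted p = 2.90e-08). CK was above KO by 0.46 (SE 0.14, limma adjusted p = 0.0173), and this difference was no longer called without KO replicate 2 (0.42, limma adjusted p = 0.0543). The table has no measure of background, so these folds describe the signal, and a low signal in the mutants may understate the change in RNA.

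The enzyme that crosslinks elastin and collagen was lower in KO alone, by a smaller log2 difference in signal than elastin, though the 2 probe sets differ. Lox, which encodes lysyl oxidase and lies on chromosome 18, read 13.42, 13.38 and 13.27 in CK, 12.79, 12.83 and 12.69 in KO, and 13.45, 13.50 and 13.40 in WT. KO arrays were below all others, while CK and WT arrays overlapped. Lox fell by 0.68 in KO relative to WT (1.60-fold, SE 0.06, limma adjusted p = 4.52e-06), and CK differed from WT by -0.09 (SE 0.06, limma adjusted p = 0.196), which did not pass the test. CK exceeded KO by 0.59 (SE 0.06, limma adjusted p = 9.74e-06).

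Of the fibrillins, the rod-like proteins that polymerise into microfibrils, only Fbn2 could be read here. Fbn2, the fibrillin best known from embryonic tissue, lies on chromosome 18 and read 10.49, 10.04 and 10.34 in CK, 8.99, 9.05 and 8.95 in KO, and 10.19, 10.11 and 9.90 in WT. KO arrays lay below the rest, and CK and WT arrays overlapped. Fbn2 fell by 1.07 in KO relative to WT (2.10-fold, SE 0.11, limma adjusted p = 1.52e-05). CK exceeded KO by 1.29 (SE 0.11, limma adjusted p = 2.35e-06) and differed from WT by 0.22 (SE 0.11, limma adjusted p = 0.103). That last difference passed the test without CK replicate 2 (0.35, limma adjusted p = 0.00909) and after the arrays were centred on their medians (0.24, limma adjusted p = 0.0462).

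The 3 microfibril-associated proteins went different ways. Mfap2 encodes MAGP1, a small glycoprotein bound to fibrillin along the microfibril. On chromosome 4, it read 12.32, 12.60 and 12.52 in CK, 11.03, 10.92 and 11.15 in KO, and 13.10, 13.14 and 12.94 in WT. The 3 genotypes did not overlap, and KO lay lowest. Mfap2 fell by 0.58 in CK relative to WT (SE 0.09, limma adjusted p = 0.00023) and fell by 2.03 in KO relative to WT (4.09-fold, SE 0.09, limma adjusted p = 2.06e-08).

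Mfap4, a fibrinogen-domain protein that binds fibrillin and tropoelastin, showed the deepest fall of any member in KO. Mfap4, on chromosome 11, read 11.72, 11.87 and 11.58 in CK, 7.94, 7.67 and 8.37 in KO, and 12.61, 12.59 and 12.45 in WT. CK arrays lay just under WT arrays, and KO arrays lay near the limit for testing. It fell by 4.56 in KO relative to WT (23.6-fold, SE 0.15, limma adjusted p = 2.09e-09) and fell by 0.83 in CK relative to WT (1.77-fold, limma adjusted p = 0.000646). CK exceeded KO by 3.73 (13.3-fold, limma adjusted p = 6.52e-09).

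Mfap5 moved opposite to the other microfibril-associated genes. It encodes MAGP-2, the relative of MAGP1, and lies on chromosome 6, as Cdkn1b does. Mfap5 read 11.60, 11.80 and 11.90 in CK, 9.60, 9.59 and 9.60 in KO, and 7.24, 7.05 and 7.18 in WT. The genotypes did not overlap, with CK highest, and every WT array lay under 7.24. Mfap5 rose by 4.61 in CK over WT (24.5-fold, SE 0.08, limma adjusted p = 3.56e-11) and by 2.44 in KO over WT (5.44-fold, SE 0.08, limma adjusted p = 1.82e-09), and CK exceeded KO by 2.17 (4.50-fold, limma adjusted p = 3.02e-09). It passed the filter on dim genes through the mutants alone, so it had to differ, and its folds describe the signal and not the RNA. Among 117 tested genes closer to Cdkn1b than Mfap5 is, Cdkn1b left out, 67.5% were called between CK and WT and 49.6% between KO and WT, against 62.9% and 51.2% of all genes tested. Of the 117, 5 were called with at least 4-fold differences in CK and 3 in KO, where 2.87% and 2.98% of all genes tested were. The part of chromosome position in the Mfap5 differences was not tested.

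Fibulin genes differed among themselves. Fbln1 and Fbln2 encode fibulins found in basement membranes and elastic tissue, and Fbln5 encodes a fibulin needed for elastic fibre assembly in mice, where it binds tropoelastin and integrins. Fbln1, on chromosome 15, read 12.98, 12.98 and 12.76 in CK, 9.92, 9.61 and 10.31 in KO, and 12.28 on all 3 WT arrays, where the deposited values are equal to the last digit and no SD is given. Fbln2, on chromosome 6, read 13.44, 13.25 and 13.29 in CK, 10.12, 9.72 and 9.92 in KO, and 11.86, 11.82 and 11.72 in WT. For both genes CK was highest and KO lowest, with no overlap between genotypes.

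Fbln1 rose by 0.62 in CK over WT (1.54-fold, SE 0.14, limma adjusted p = 0.00302) and fell by 2.34 in KO relative to WT (5.05-fold, SE 0.14, limma adjusted p = 2.43e-07). Fbln2 rose by 1.53 in CK over WT (2.89-fold, SE 0.10, limma adjusted p = 2.43e-07) and fell by 1.87 in KO relative to WT (3.67-fold, SE 0.10, limma adjusted p = 5.88e-08). The distance between the mutants was therefore 2.96 for Fbln1 (7.79-fold, limma adjusted p = 2.76e-08) and 3.41 for Fbln2 (10.6-fold, limma adjusted p = 5.21e-10), both higher in CK.

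Fbln5, on chromosome 12, was the member that did not pass the test in KO against WT. It read 11.92, 11.80 and 11.82 in CK, 12.56, 12.70 and 12.31 in KO, and 12.60, 12.59 and 12.46 in WT. KO and WT arrays overlapped and CK arrays lay below both. Fbln5 fell by 0.70 in CK relative to WT (1.63-fold, SE 0.09, limma adjusted p = 5.78e-05), and CK was below KO by a log2 difference of -0.67 (SE 0.09, limma adjusted p = 7.84e-05). KO differed from WT by -0.03 (SE 0.09, limma adjusted p = 0.819).

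The bases before a listed start of the fibulin genes are shown because Fbln1 and Fbln2 shared an order of genotypes that Fbln5 did not. Mfap2 is added as a microfibril gene lowest in KO. Each line gives the 250 bases before a transcription start listed by RefSeq (GRCm38.p6), written 5′ to 3′ on the strand of the gene, for the start listed first where a gene has several. Capitals mark matches on either strand to TGANTCA (the AP-1 site), CAGAC (a SMAD motif), GGGCGG (the GC box) or TATAAA (the TATA box), and no matches overlap in these windows. The Fbln1 window is chr15:85205699-85205948 (plus strand), the Fbln2 window chr6:91212514-91212763 (plus strand), the Fbln5 window chr12:101819120-101819369 (minus strand) and the Mfap2 window chr4:141010431-141010680 (plus strand). The Fbln2 and Mfap2 windows lie inside the bounds given for these genes, which begin at 91212460 for Fbln2 and 141010424 for Mfap2.
Fbln1: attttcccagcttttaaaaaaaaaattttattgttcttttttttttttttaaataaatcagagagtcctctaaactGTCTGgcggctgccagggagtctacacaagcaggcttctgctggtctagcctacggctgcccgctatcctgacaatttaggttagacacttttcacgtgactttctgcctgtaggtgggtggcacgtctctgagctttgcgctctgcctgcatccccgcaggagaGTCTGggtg
Fbln2: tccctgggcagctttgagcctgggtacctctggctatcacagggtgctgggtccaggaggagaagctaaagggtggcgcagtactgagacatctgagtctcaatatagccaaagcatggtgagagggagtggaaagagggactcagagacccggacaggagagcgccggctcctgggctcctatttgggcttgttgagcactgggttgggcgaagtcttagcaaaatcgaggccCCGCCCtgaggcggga
Fbln5: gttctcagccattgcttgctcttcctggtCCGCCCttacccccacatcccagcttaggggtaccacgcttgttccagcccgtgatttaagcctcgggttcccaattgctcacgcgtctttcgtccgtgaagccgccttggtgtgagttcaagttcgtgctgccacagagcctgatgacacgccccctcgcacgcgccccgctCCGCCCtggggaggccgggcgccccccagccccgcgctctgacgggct
Mfap2: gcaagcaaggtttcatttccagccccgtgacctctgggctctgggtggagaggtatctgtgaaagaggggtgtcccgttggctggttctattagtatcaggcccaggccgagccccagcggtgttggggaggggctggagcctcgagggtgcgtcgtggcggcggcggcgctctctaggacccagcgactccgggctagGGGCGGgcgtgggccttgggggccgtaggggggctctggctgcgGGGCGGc
The Fbln1 window holds 2 SMAD motifs and no GC box, the Fbln2 window holds 1 GC box, and the Fbln5 and Mfap2 windows hold 2 GC boxes each. None of the 4 windows holds TGANTCA or TATAAA. Of 32851 such windows in the RefSeq table, 42.2% hold a SMAD motif, 32.7% a GC box, 12.4% a TATA box and 6.75% an AP-1 site. These are matches of letters and not measured binding, and the matches depend on the start: the window of the other Fbln1 start, chr15:85205758-85206007, holds 2 SMAD motifs and 1 GC box, that of the other Fbln5 start 2 SMAD motifs and no GC box, and that of the other Mfap2 start 1 SMAD motif and no GC box.

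**Figure D2:**
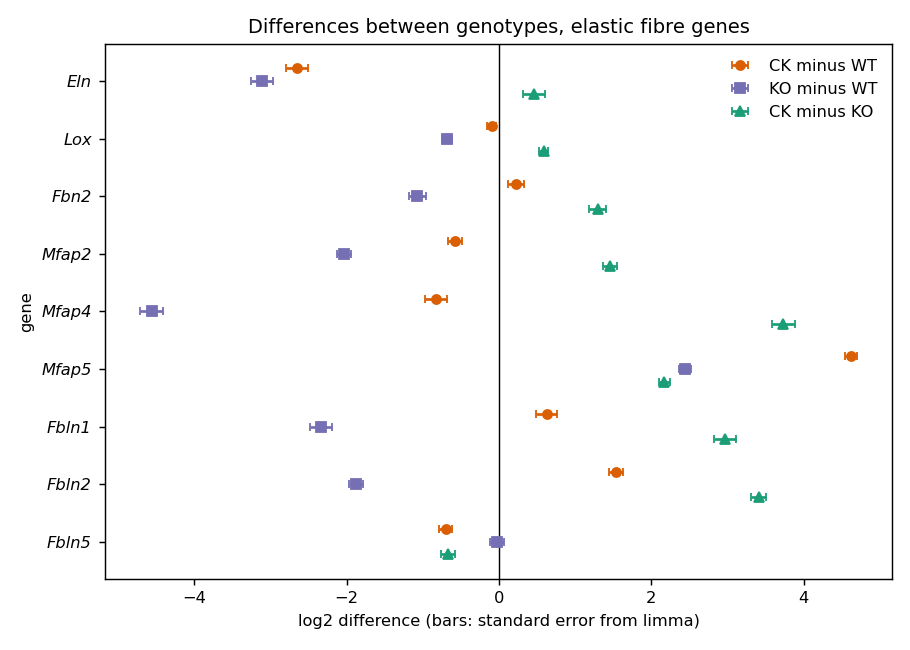
Log2 differences (horizontal axis) of the 9 members (vertical axis) for CK minus WT, KO minus WT and CK minus KO; bars are standard errors from limma over 9 arrays. CK minus WT and KO minus WT have opposite signs for Fbln1 and Fbln2, Mfap5 is above 0 in all 3 comparisons, and 8 of 9 members are above 0 for CK minus KO.

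The members were then set beside all genes tested. In CK against WT limma called 7 of 9 members, where 62.9% of all genes tested were called, and 3 members differed at least 2-fold, against 10.8% of genes. The difference was at least 4-fold for 2 members, against 2.87% of genes, and CK and WT arrays did not overlap for 7 members and for 67.3% of genes. The median log2 difference was -0.09 over the members and -0.01 over all genes, and the median size was 0.70 and 0.28.

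In KO against WT limma called 8 of 9 members, where 51.2% of genes were called. KO and WT arrays did not overlap for 8 members and for 60.9% of genes. A difference of at least 2-fold was called for 7 members, against 8.77% of genes, and of at least 4-fold for 5 members, against 2.98% of genes. The median log2 difference was -1.87 over the members and 0.01 over all genes.

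In CK against KO limma called all 9 members, 8 higher and 1 lower in CK, where 62.2% of genes were called, 29.5% higher and 32.7% lower. At least 2-fold differences were called for 6 members against 12.4% of genes, and at least 4-fold ones for 4 members against 3.78% of genes. CK and KO arrays did not overlap for 9 members and for 67.5% of genes, and the median log2 difference was 1.45 over the members and -0.02 over all genes. The comparisons share arrays in pairs, so they are not separate evidence for each other. With 3 arrays against 3, the exact two-sided permutation test cannot give a p below 0.1, and it gave 0.1 for each pair of genotypes that did not overlap. Mfap5 is among the members counted at 2-fold and 4-fold in all 3 comparisons, and against WT the filter fixed that it had to differ.

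**Figure D3:**
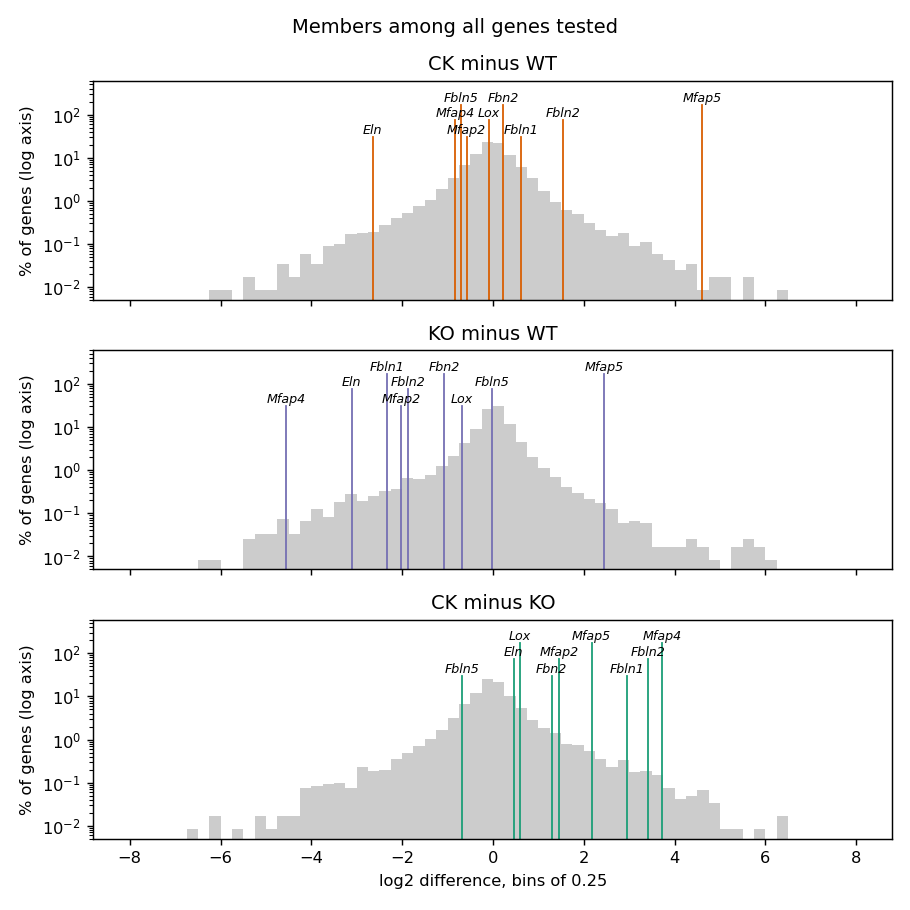
Share of the 11962 tested genes (vertical log axis, percent) in bins of log2 difference (horizontal axis, grey bars) for each comparison, with a coloured line at each member's value. In KO minus WT 7 member lines lie below -0.6, 1 lies near 0 (Fbln5) and 1 at 2.44 (Mfap5).

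Over the 9 arrays, Pearson r between members was highest for Mfap2 and Mfap4 (r = 0.99) and lowest for Mfap5 and Fbln5 (r = -0.83). By the root mean square distance used below, which also counts the size of differences, Mfap2 and Mfap4 lay 1.15 apart. By that measure Lox and Fbn2 were the nearest members (0.315). These are descriptions over 9 arrays that fall into 3 genotypes, and genes whose genotype means are spaced alike give a high r. Mfap5 and Mfap4 had the widest range of genotype means, 4.61 and 4.56. The genes nearest to Mfap5, by root mean square distance over 9 arrays after each gene was centred on its own mean, were Gfra2 (0.202), Serpinb9b (0.520) and Egln3 (0.573). Gfra2, a receptor for neurturin, averaged 11.52 in CK, 9.61 in KO and 7.25 in WT. The genes nearest to Mfap4 were Lhfpl2 (0.253), Cdkn1b (0.272) and the chemokine Ccl2 (0.318), each low in KO alone.

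Other genes of the elastic fibre were read from a list of 60 names, of which 55 had a probe set and 46 were bright enough to be tested. In CK against WT 16 rose and 21 fell, in KO against WT 6 rose and 27 fell, and in CK against KO 22 were higher and 9 lower. These calls are 80.4%, 71.7% and 67.4% of the 46 genes, where 62.9%, 51.2% and 62.2% of all genes were called. The median log2 differences were -0.08, -0.38 and 0.25, beside -0.01, 0.01 and -0.02 over all genes. The list was written with earlier results of these data known, and genes that are high in 1 genotype alone can pass the filter through it.

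Among the other crosslinking genes, Loxl1, the lysyl oxidase relative tied to elastin upkeep in mice, averaged 12.72 in CK, 11.14 in KO and 12.52 in WT, and CK exceeded KO by 1.57 (SE 0.06, limma adjusted p = 5.62e-09). Loxl3 fell by 1.86 in CK and by 1.11 in KO relative to WT. Loxl4 rose by 1.65 in CK and by 2.28 in KO over WT (limma adjusted p = 6.11e-09 in KO). Of the 6 crosslinking and copper supply genes tested, 4 rose and 2 fell in CK, where 30.7% and 32.1% of all genes did, and 2 rose and 4 fell in KO, where 26.6% and 24.6% did.

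The next groups were fibulin relatives and the family named latent TGF-beta binders, whose proteins associate with microfibrils. Of 4 fibulin relatives tested, 3 fell and 0 rose in CK, where 32.1% and 30.7% of all genes did, and 2 fell and 1 rose in KO, where 24.6% and 26.6% did. Efemp1, which encodes fibulin-3, averaged 11.11 in CK, 9.09 in KO and 13.02 in WT, and fell by 3.93 in KO relative to WT (15.2-fold, SE 0.19, limma adjusted p = 3.86e-08). Hmcn1, a very large fibulin-like protein, fell by 2.48 in CK and fell by 2.78 in KO relative to WT. Fbln7 went against these, up by 1.68 in KO over WT (SE 0.23, limma adjusted p = 0.00015). Of the 4 latent TGF-beta binders 3 fell and 0 rose in each mutant, where 32.1% of all genes fell in CK and 24.6% in KO. Ltbp2, a member of the family that binds microfibrils, fell by 2.57 in CK and fell by 3.09 in KO relative to WT (limma adjusted p = 1.11e-07 in KO).

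Among other microfibril-associated genes, Thsd4, whose product promotes fibrillin assembly, fell by 1.90 in CK and fell by 2.94 in KO relative to WT (limma adjusted p = 7.22e-11 in KO). Versican, a large proteoglycan that binds fibrillin and is encoded by Vcan, averaged 11.98 in CK, 7.24 in KO and 10.63 in WT. It rose by 1.35 in CK and fell by 3.39 in KO relative to WT (limma adjusted p = 1.31e-06 in KO). CK exceeded KO by 4.74 (26.7-fold, limma adjusted p = 6.46e-08). The KO arrays of Vcan read 7.55, 7.17 and 6.99, around the limit for testing, so its differences from KO describe the signal. Adamtsl3 ran the other way, fell by 2.25 in CK relative to WT, and was lower in CK than in KO by a log2 difference of -3.15 (limma adjusted p = 2.3e-10), as was Adamtsl4 by -1.63. Adamts10, a fibrillin-binding metalloprotease of the ADAMTS family, fell by 1.52 in CK and by 0.91 in KO relative to WT. Adamts6 rose by 1.60 in CK and fell by 0.39 in KO relative to WT. Emilin2, of a family at the interface of elastin and microfibrils, fell by 2.34 in KO relative to WT.

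Proteases that cleave elastin, listed with Mmp14, which activates pro-Mmp2 at the cell surface, were higher in CK than in KO for 6 of 6 tested, a direction called for 29.5% of all genes. Of these 6, 3 rose and 2 fell in CK against WT, where 30.7% and 32.1% of all genes did. In KO against WT 0 rose and 4 fell, where 26.6% and 24.6% did. Mmp12 is among the 6 and among the 3 that rose in CK. Mmp12, the macrophage metalloelastase, averaged 9.32 in CK, 6.32 in KO and 6.33 in WT. It rose by 3.00 in CK over WT (SE 0.13, limma adjusted p = 2.11e-08), and it passed the filter through CK alone, so it had to be higher there. Of 5 macrophage markers, Ptprc, Csf1r, Adgre1 and Itgam were under 7.24 in each genotype, and Cd68, which also marks lysosomes of other cells, averaged 8.59 in CK, 7.99 in KO and 10.64 in WT and was called in all 3 comparisons. Ctsk, the collagen and elastin protease cathepsin K, averaged 9.87 in CK, 6.96 in KO and 9.88 in WT. It fell by 2.92 in KO relative to WT (SE 0.19, limma adjusted p = 3.65e-07), to a mean under 7.24, so the fall describes the signal. Ctsk passed the filter through CK and WT alone, so it had to be lower in KO. It is among the 6 higher in CK than in KO and among the 4 that fell in KO. Mmp9 fell by 1.46 in CK and fell by 3.36 in KO relative to WT, and Mmp14 was higher in CK than in KO by 1.78. Of 10 receptor and chaperone genes tested, integrins among them, 5 rose and 3 fell in CK, where 30.7% and 32.1% of all genes did. In KO 1 rose and 6 fell, where 26.6% and 24.6% did. Of the integrins that bind fibrillin or fibulins, Itga8 fell by 1.67 in KO and Itgb3 fell by 1.55 in KO relative to WT. Itgb1 rose by 0.24 in KO over WT. Itga5, whose product with integrin beta 1 is the fibronectin receptor, was higher in CK than in KO by 1.48.

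**Figure D4:**
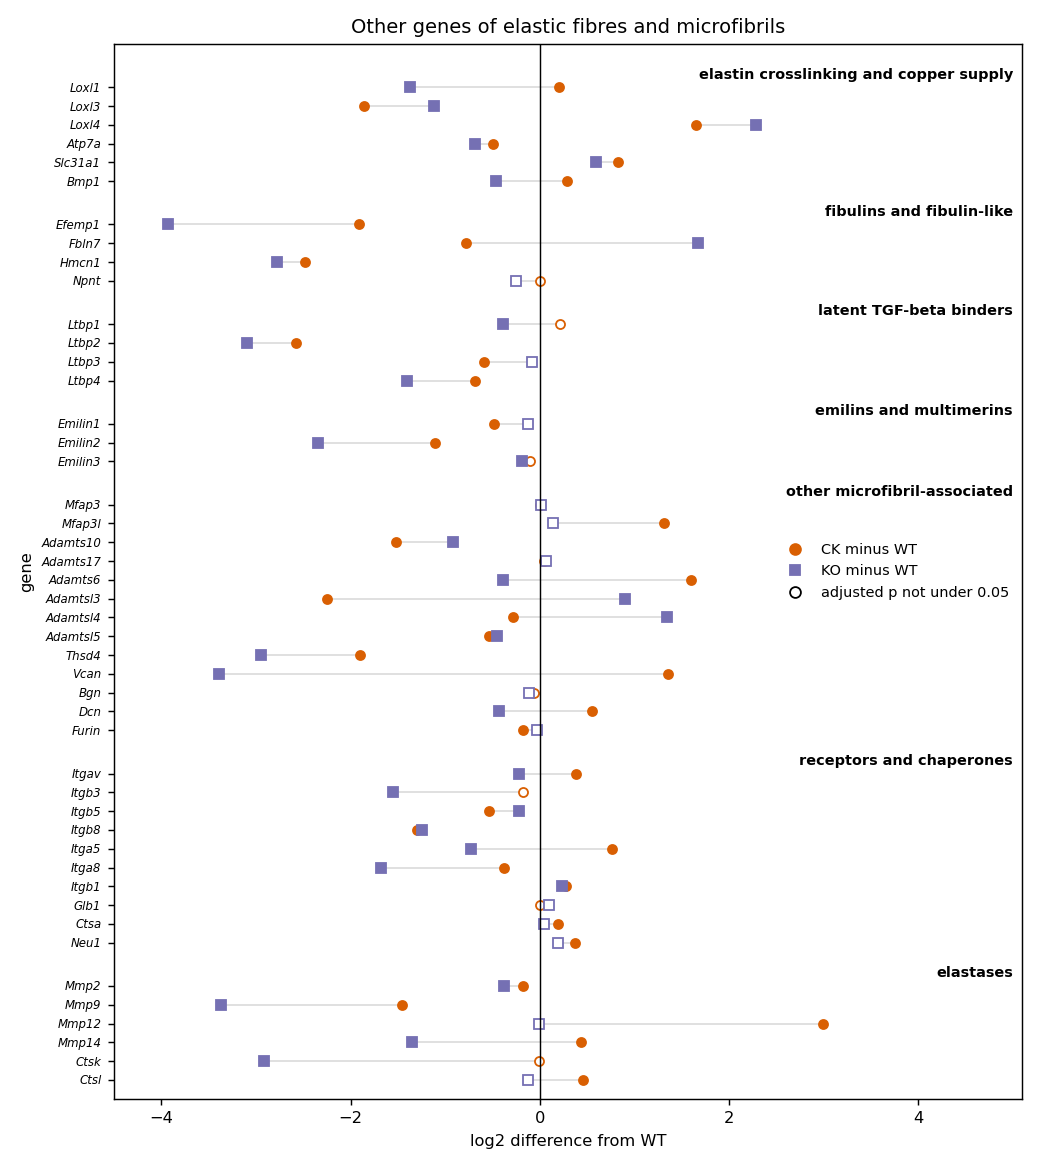
Log2 differences from WT (horizontal axis) of the 46 tested genes of the wider list (vertical axis, grouped by role), as circles for CK and squares for KO; open symbols did not pass limma at an adjusted p under 0.05, and a grey line joins the symbols of a gene. The latent TGF-beta binders lie left of 0 in KO, and Vcan, Adamtsl3, Fbln7 and Adamts6 have their symbols on opposite sides of 0.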

How the data were processed

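Biotin-labelled cRNA from 3 CK, 3 KO and 3 WT samples was read on Affymetrix arrays. Per the submitters' processing notes, the authors used RMA and affy, which give log2 values, here for 34760 probe sets; versions, annotation and genome build are not given in the sources used here. RMA includes quantile normalization, so a change in total RNA per cell would not show. The deposited cells are strings of 10 to 15 digits without a decimal mark and were therefore entered as a score. Put behind the leading digit, the mark gave at most 1.44 for strings that begin with 1 and at least 4.28 for the rest. Strings that begin with 1 were taken as 10 or more, for a range of 4.28 to 14.4. Detection calls, scanner files, slides and scan batches were not used here. Of probe sets, 1.47% in CK, 1.31% in KO and 1.21% in WT had equal values on all 3 arrays.

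Probe sets were named from the platform annotation where it gives 1 symbol (21640), symbols were updated through RefSeq (GRCm38.p6), and the brightest probe set stood for a gene. The 11962 of 19937 genes whose mean reached the 40th percentile, 7.24, were tested. limma 3.58.1 in R 4.3.3 was fitted with 1 coefficient per genotype over 9 arrays (6 residual and 4.1 prior degrees of freedom), and genes with a p under 0.05 after Benjamini-Hochberg adjustment over all genes tested were called. The fit was tested on simulated data. The number of arrays limits the precision.

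The members and gene lists were chosen with earlier results of these data known. All members are named. Of the other 60 names, those called with a log2 difference of at least 1 whose arrays did not overlap are named, at most 12 per comparison. The single markers named (Thy1, Col1a1, Matn1, Acan, Comp, Hapln1, Nes, Map2, Sox10, Tubb3, Fabp4, Pparg, Cnn1, Acta2, Tagln and Cd68, with the dim smooth muscle and macrophage markers) were picked after their values were seen. The 3 nearest genes are named for the 2 members with the widest range of means. Promoter motifs were chosen after the values were seen. Alternatives were other filters, probe set means, limma-trend, 6-array fits, the replicate number as a block, centring, quantile normalization, a stricter threshold, leaving out tied genes and leaving out each array.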

Additional observations from a re-analysis of the deposited data

Results flagged for a closer look

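Some genes were called in opposite directions in CK and KO relative to WT, and the difference between the mutants itself passed limma. The value given for each is the log2 difference CK minus KO, and the effects share the same WT arrays. Among the members these were Fbln1 (2.96) and Fbln2 (3.41). Among the other elastic fibre genes, CK was above KO for Vcan (4.74), Adamts6 (1.99), Mmp14 (1.78), Loxl1 (1.57), Itga5 (1.48), Dcn (0.99), Bmp1 (0.76) and Itgav (0.60). CK was below KO for Adamtsl3 (-3.15), Fbln7 (-2.46) and Adamtsl4 (-1.63). Groups of 3 arrays are too small for the test of single outlying samples.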

How the results depend on the processing

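Over 19 alternatives, 27 member differences were recomputed 510 times, and 506 kept their side of the threshold. The other 4 concern Fbn2 in CK against WT (called after median centring, 0.24, and without CK replicate 2, 0.35) and Eln in CK against KO (not called at an adjusted p under 0.01, nor without KO replicate 2, 0.42). The sign of Fbln5 in KO against WT, not called, turned without KO replicate 3 (0.08). Called members ranged over all alternatives from 6 to 8 in CK against WT, 7 to 8 in KO against WT and 8 to 9 in CK against KO, the lower ends of the first comparisons coming from the fit that leaves out tied genes and with them Fbln1. Called genes ranged from 5442 to 8434, 4434 to 6718 and 5367 to 8274. Same-numbered arrays did not deviate together in every pair (correlations from -0.30 to 0.36), and not every array correlated best with its own number. Between KO and WT the same-numbered pairs gave 0.05, 0.25 and 0.36. They gave 0.05, -0.30 and -0.09 between CK and KO, and -0.03, -0.20 and -0.04 between CK and WT. The numbers were not taken as pairs, though a check on 3 arrays per genotype cannot exclude pairing. With the replicate number as a block, 7, 8 and 9 members and 7377, 5979 and 7291 genes were called. Signals near or under 7.24 may be background, which limits their folds. They include Mfap5 in WT, Mfap4, Eln, Vcan, Ctsk, Mmp9 and Thsd4 in KO, and Mmp12 in KO and WT.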

Other observations

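Of the other elastic fibre genes, 9 of the 55 measured were too dim to be tested and have no p. They include the neutrophil proteases Elane (7.20 in CK, 7.16 in KO and 7.12 in WT) and Prtn3 (6.76, 6.73 and 6.71), Mmp7 (6.16, 6.16 and 6.15), cathepsin S (Ctss, 6.17, 6.16 and 6.15) and the epithelial integrin Itgb6 (5.48, 5.47 and 5.50). Tll1, a relative of the procollagen protease Bmp1, averaged 7.65 in CK, 7.04 in KO and 6.70 in WT.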
